A study of Mus musculus with 4 samples.

Results

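The genes described here are 10 members of the BCL2 family that decide between survival and death of a cell: the anti-apoptotic genes Bcl2, Bcl2l1 (BCL-XL) and Mcl1, the effector genes Bax and Bak1, and the BH3-only genes Bad, Bid, Bbc3 (PUMA), Bcl2l11 (BIM) and Pmaip1 (NOXA). They were taken by gene name and make up 10 of the 34816 genes or transcripts named on the arrays. The members had 14 probes, 2 each for Bcl2l1, Mcl1, Bad and Bcl2l11 and 1 each for the other 6 genes. Of these probes, 13 were well above background on all 4 arrays, and all 10 genes were measured on every array.

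The study asked how activity of the kinase AKT affects the reprogramming of fibroblasts into induced pluripotent stem cells. OE-MEFs, which are fibroblasts that carry an Oct4 promoter-driven EGFP reporter and were pooled from male E13.5 embryos, were infected with retroviral vectors for Oct4, Sox2 and Klf4 (OSK) or for OSK and AKT-MER (OSKA). AKT-MER joins myristoylated AKT to a modified estrogen receptor, and 4-hydroxytamoxifen (4OHT) switches it on. Cells received 4OHT or its ethanol vehicle from 3 dpi (days postinfection) and were sampled at 8 dpi, with 1 array each for OSK − 4OHT, OSK + 4OHT, OSKA − 4OHT (AKT-nonactivated) and OSKA + 4OHT (AKT-activated) cells. All 4 groups carried OSK and the reporter, and no colony or reporter-positive fraction was sorted out. One free-text label of the OSKA + 4OHT array speaks of inactive AKT-MER, against the title of the same array, and the title was followed.

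A level is the log2 intensity of a probe minus that of the 75th percentile of its array, and this percentile was 461.9, 376.7, 403.0 and 383.5 intensity units in the order of groups just given. With 1 array per group no difference has a replicate check, and no p-value is given. Differences are instead set beside the error that the scanner software gives for a spot, which covers the reading of the array and leaves out any variation among cultures. For a typical gene this error was 0.21 on the log2 scale of a difference. Outside the Bcl2l11 probes, the error of 1 array was 0.14 to 0.15 for every member probe, so it acts as nearly the same cutoff for them. The 399 probes spotted 10 times had a median standard deviation among their spots of 0.058 to 0.067 across the arrays, which is smaller. All arrays lay on 1 slide, so position on the slide and group cannot be told apart. All 6 fibroblast markers were well above background on every array, with a log2 summed level of 10.21 to 10.41, and 4 of the 6 pluripotent markers were so on every array, with a log2 summed level of 1.64 to 2.18, while the other two, Zfp42 and Esrrb, were not well above background on any. The 5 epithelial markers were all well above background.

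Proteins of the BCL2 family control the permeability of the outer mitochondrial membrane. BAX and BAK form the pores through which cytochrome c leaves, BCL2, BCL-XL and MCL1 hold them in check, and the BH3-only proteins neutralise the anti-apoptotic proteins or activate the effectors. AKT is known as a survival kinase that acts on several points of this circuit. It phosphorylates BAD, which then binds 14-3-3 proteins, it keeps FOXO transcription factors, which can induce Bcl2l11 and Bbc3, out of the nucleus, and it restrains the kinase GSK3, which marks MCL1 for degradation. An expression array reads transcript levels and none of these changes in protein.

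Sequences are shown here for the members in which AKT has a known route through FOXO. The RefSeq promoter table of GRCm38.p6 held 15 windows for 9 of the members, each with 250 bases before and 50 after a transcript start. Pmaip1 was not matched. The letters GTAAACA, the core that FOXO proteins bind, were searched on both strands. They were found in 2 of the 15 windows, 1 of Bcl2l11 and 1 of Bbc3, and in 3.65% of all 32851 windows. The stretches below hold 30 bases each in the direction of the gene, and capitals mark the match, which for Bbc3 reads on the opposite strand. The match begins 227 bases before the start in Bcl2l11 (chr2:128125800-128125829, plus strand) and 167 bases before it in Bbc3 (chr7:16310083-16310112, plus strand).
Bcl2l11: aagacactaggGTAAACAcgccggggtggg
Bbc3: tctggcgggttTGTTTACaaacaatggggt
A match is a string of letters and no evidence of binding in these cells.

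By the 75th percentile, no member differed by 2-fold, or by 1.5-fold, on its brightest probe in any of the 4 comparisons of arrays. This does not cover second probes or spike-in scaling, under which Bid (−0.64) and the dimmer probes of Mcl1 (−0.77), Bad (−0.61) and Bcl2l11 (−0.72) passed 1.5-fold for AKT-MER without 4OHT, and the same Mcl1 probe for 4OHT in OSK cells (−0.59). By the 75th percentile, the dimmer Bcl2l11 probe, not well above background in OSKA + 4OHT cells, read 2.05-fold lower there than in OSK + 4OHT cells. Among all genes measured on both arrays, 2-fold differences made up 0.886% for 4OHT in OSK cells, 2.91% for 4OHT in OSKA cells, 2.02% for AKT-MER without 4OHT (OSKA − 4OHT against OSK − 4OHT) and 3.04% for AKT-MER with 4OHT (OSKA + 4OHT against OSK + 4OHT). At 1.5-fold these shares were 5.95%, 9.7%, 9.65% and 10.6%. By the 75th percentile, the level of a member across the 4 arrays spanned between 0.12 (Bad) and 0.68 (Pmaip1), with a median span of 0.30, compared with 0.36 for the 19540 genes measured on all arrays. By the 75th percentile, differences larger than the software error were found for 1, 2, 3 and 3 of the 10 members in these comparisons, against 34.0%, 42.5%, 39.8% and 45.7% of all genes. Under spike-in scaling these were 4, 2, 7 and 3 members, against 71.3%, 42.0%, 83.2% and 56.3% of all genes. The cultures were not sorted, and in such bulk RNA a smaller number of expressing cells and less RNA per cell cannot be told apart.

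**Figure D1:**
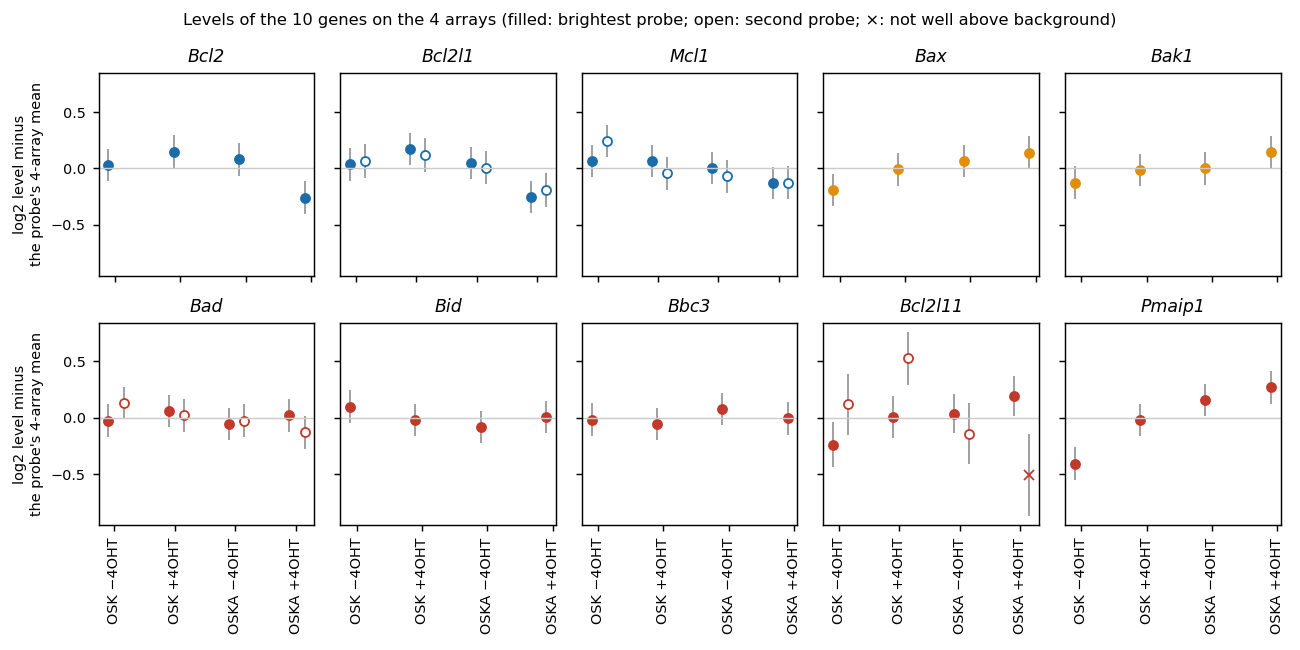
Level of each gene on the 4 arrays, as log2 level minus the mean of that probe over the 4 arrays; filled points are the brightest probe, open points the second probe, a cross a probe not well above background, and bars the software error of 1 array. Bcl2, Bcl2l1 and Mcl1 (blue) are lowest on the OSKA + 4OHT array, and so are the second probes of Bad and Bcl2l11. Bax and Bak1 (orange) and Pmaip1 (red) are highest there, for Bax and Bak1 not under spike-in scaling.

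The 3 anti-apoptotic members had their lowest level in AKT-activated cells. Bcl2, the founding inhibitor of apoptosis, was at 0.11 in OSK − 4OHT, 0.22 in OSK + 4OHT, 0.16 in OSKA − 4OHT and −0.18 in OSKA + 4OHT cells. By the 75th percentile its 3 other arrays lay within 0.12 of each other, and the OSKA + 4OHT array lay below all of them. The difference was −0.34 ± 0.21 (software error, 0.790-fold) for 4OHT in OSKA cells and −0.41 ± 0.21 (0.754-fold) for AKT-MER with 4OHT, while it was 0.12 for 4OHT in OSK cells and 0.05 for AKT-MER without 4OHT, or −0.19 and −0.41 under spike-in scaling. The probe of Bcl2 lies at chr1:108608970-108609029 on the minus strand (mm9).

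Bcl2l1 encodes the inhibitor BCL-XL. It was at 4.73, 4.87, 4.75 and 4.44 in OSK − 4OHT, OSK + 4OHT, OSKA − 4OHT and OSKA + 4OHT cells, so that the AKT-activated array was again the low one. The difference was −0.30 ± 0.20 (0.811-fold) for 4OHT in OSKA cells and −0.42 ± 0.20 (0.746-fold) for AKT-MER with 4OHT, and 0.14 for 4OHT in OSK cells and 0.01 for AKT-MER without 4OHT, which became −0.17 and −0.44 under spike-in scaling. The dimmer probe of Bcl2l1 was also lowest in OSKA + 4OHT cells, at −1.25, −1.19, −1.31 and −1.51, and its difference for 4OHT in OSKA cells, −0.20 ± 0.21, did not exceed the error.

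Mcl1 encodes a short-lived inhibitor that NOXA binds. Its brighter probe was at 5.50, 5.50, 5.44 and 5.30 in OSK − 4OHT, OSK + 4OHT, OSKA − 4OHT and OSKA + 4OHT cells, and the difference for 4OHT in OSKA cells was −0.14 ± 0.20. The other probe was at 3.51, 3.22, 3.19 and 3.14. On that probe the OSK − 4OHT array stood above the other arrays, with differences of −0.29 ± 0.20 for 4OHT in OSK cells and −0.31 ± 0.20 for AKT-MER without 4OHT, where the brighter probe gave 0.00 and −0.06. Counting both probes of Bcl2l1 and Mcl1, 5 of 5 probes of the anti-apoptotic genes were lowest on the OSKA + 4OHT array, both by the 75th percentile and with arrays scaled to the spike-in control probes. Of all genes measured on the 4 arrays, 37.5% were lowest there, which is a share of genes and not of probes. On brightest probes by the 75th percentile, 3 of the 10 members were lowest there, the anti-apoptotic ones. The dimmer probes of Bad (0.15) and Bcl2l11 (−4.43, not well above background) were also lowest there. Under spike-in scaling Bbc3 was as well, so a low level on this array was not limited to anti-apoptotic genes. For 4OHT in OSKA cells, 3 of 5 epithelial markers were higher and 2 lower, with a median of 0.56. The higher ones were led by Cldn3 at 1.52 and Krt18 at 0.86. The lower ones were Cdh1 at −0.135 ± 0.215 and Epcam at −0.45 ± 0.24. The log2 summed level of the 5 was 1.27 in OSKA − 4OHT and 1.995 in OSKA + 4OHT cells. In OSK − 4OHT and OSK + 4OHT cells it was 2.12 and 1.77. Of the 4 measured pluripotent markers, 3 were lower for 4OHT in OSKA cells, with a median of −0.23, or −0.15 with the mean of all probes. Their log2 summed level was 2.18 in OSKA − 4OHT and 1.64 in OSKA + 4OHT cells. Tdgf1 differed by −0.73 and the dim Utf1 and Dppa5a by −0.27 and 0.53. Nanog differed by −0.19 ± 0.21, within the error, and by 0.11 on another probe. Of the 6 fibroblast markers, 4 were higher and 2 lower, with a median of 0.08 and 1, Pdgfrb, lower by 1.5-fold or more (−0.67). The part of these cell types in the differences of the members was not tested.

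The 4 genes with 2 probes are the ones in which probes could be compared, and 30 bases of each probe are shown as the array files give them. Capitals mark AATAAA, the signal that precedes the end of many transcripts, which was found in 2 of the 14 probes, both the brightest of their gene, and in 10.06% of the 55681 probes of the array.
Bcl2l1, brighter probe: gtgcagttcagtAATAAAtggtgtctgtga
Bcl2l1, dimmer probe: attggtgagtcggattgcaagttggatggc
Mcl1, brighter probe: gctgcttggaaagatggctctcagcaaaat
Mcl1, dimmer probe: tgcagcttctctagttagaaatgtatttct
Bad, brighter probe: aacgtgctttatAATAAAgcctgcgcatgt
Bad, dimmer probe: tggagaccagcagcccagagtatgttccag
Bcl2l11, brighter probe: ggatcggagacgagttcaacgaaacttaca
Bcl2l11, dimmer probe: atctcagtgcaatggatcagttggagaatc
In mm9 these probes lie, in the same order, at chr2:152606404-152606463 and chr2:152655185-152655244 (both minus strand), chr3:95466855-95466914 and chr3:95465543-95465602, chr19:7026323-7026382 and chr19:7016918-7017403, and chr2:127972893-127983988 and chr2:127954736-127955417 (all plus strand). The dimmer Bad probe and both Bcl2l11 probes are 60 bases long but cover a longer stretch of genome in these coordinates. Whether a probe lies in coding or untranslated sequence was not analysed here.

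The effector members Bax and Bak1 were higher in AKT-activated than in AKT-nonactivated cells, by less than the error. Bax was at 4.04, 4.22, 4.30 and 4.37 in OSK − 4OHT, OSK + 4OHT, OSKA − 4OHT and OSKA + 4OHT cells. Bak1 was at 3.45, 3.56, 3.57 and 3.72 in the same order. Both had their lowest level in OSK − 4OHT and their highest in OSKA + 4OHT cells, but under spike-in scaling their highest level was in OSK − 4OHT cells. For 4OHT in OSKA cells the differences were 0.08 for Bax and 0.15 for Bak1, with an error of 0.20 each. Of their 8 differences over the comparisons, all were above 0 (4 of them below 0 under spike-in scaling), and 1 exceeded its error, that of Bax for AKT-MER without 4OHT at 0.26 ± 0.20, which became −0.20 under spike-in scaling.

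Among the BH3-only genes, Pmaip1 had the widest span of levels by the 75th percentile on the brightest probes, but not under spike-in scaling. There, relative to OSK − 4OHT cells, Bid reached −0.64 and Bad −0.49 in OSKA − 4OHT cells and Bbc3 −0.43 in OSKA + 4OHT cells. Pmaip1 reached 0.235, and only Bcl2l11, at −0.18, spanned less. Pmaip1 encodes NOXA, a target of p53 that binds MCL1. It was at 1.05 in OSK − 4OHT, 1.44 in OSK + 4OHT, 1.61 in OSKA − 4OHT and 1.73 in OSKA + 4OHT cells, so that the OSK − 4OHT array stood below the others. The difference was 0.57 ± 0.20 (1.48-fold, but 0.11 under spike-in scaling) for AKT-MER without 4OHT, 0.39 ± 0.20 (1.31-fold, but 0.08 under spike-in scaling) for 4OHT in OSK cells, 0.29 ± 0.20 (1.22-fold, but 0.15 under spike-in scaling) for AKT-MER with 4OHT and 0.11 ± 0.20 for 4OHT in OSKA cells. A difference at least as large as that of Pmaip1 for AKT-MER without 4OHT was seen in 10.39% of all genes.

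Bcl2l11, the gene of BIM, was dim on these arrays. Its brighter probe was at −3.15, −2.90, −2.87 and −2.71 in OSK − 4OHT, OSK + 4OHT, OSKA − 4OHT and OSKA + 4OHT cells. The difference for 4OHT in OSKA cells was 0.16 ± 0.25, and 1 of the 4 differences exceeded its error, 0.28 ± 0.26 for AKT-MER without 4OHT. In that comparison the other probe gave −0.26 ± 0.38, and the brighter one gave 0.08 with normexp background correction and −0.18 under spike-in scaling. The other probe was at −3.81, −3.40 and −4.07 on the first 3 arrays and was not well above background in OSKA + 4OHT cells. Its reading there was −4.43, which was above the lowest level called well above background on that array. Against that reading it was 1.29-fold lower (0.37 on the log2 scale) for 4OHT in OSKA cells and 2.05-fold lower for AKT-MER with 4OHT. These are readings of a dim probe and no lower bounds. Its software errors were 0.27 in OSKA − 4OHT and 0.36 in OSKA + 4OHT cells, which together exceed the 0.37. The probes of Bcl2l11 therefore gave opposite directions in these 3 comparisons, and for 4OHT in OSKA cells both lay within the error. No direction is given for this gene in them.

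The 3 remaining BH3-only genes showed no difference beyond the error by the 75th percentile. Under spike-in scaling, which lowered all genes alike there, they were below 0 by more than the error for 4OHT in OSK cells (Bad −0.22, Bbc3 −0.35, Bid −0.42) and for AKT-MER without 4OHT (Bad −0.49, Bbc3 −0.36, Bid −0.64). Bad, whose protein AKT phosphorylates, was at 4.36, 4.44, 4.32 and 4.40 in OSK − 4OHT, OSK + 4OHT, OSKA − 4OHT and OSKA + 4OHT cells on its brighter probe, the smallest span of all members by the 75th percentile. Its dimmer probe was at 0.41, 0.30, 0.26 and 0.15. Bbc3, the gene of PUMA, was at 2.56, 2.52, 2.65 and 2.57, with −0.09 ± 0.20 for 4OHT in OSKA cells. Bid, whose protein is cleaved by caspase-8, was at 1.93, 1.82, 1.75 and 1.84, with differences from −0.18 to 0.09 over the comparisons by the 75th percentile.

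**Figure D2:**
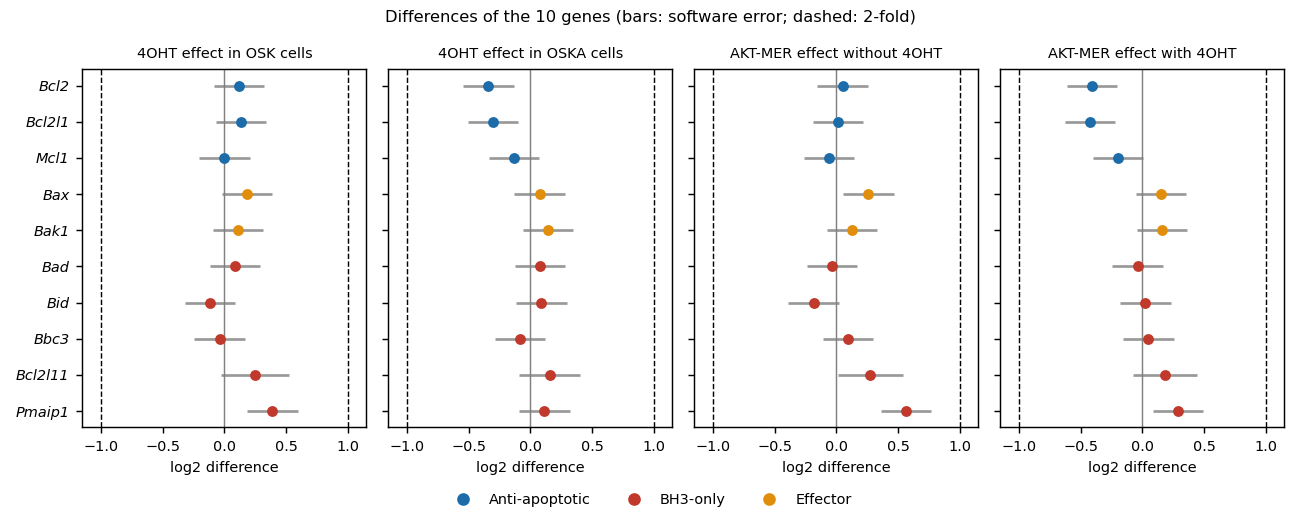
Log2 difference of each gene (points, brightest probe) in the 4 comparisons, with the software error as bars and dashed lines at 2-fold. No point reaches a dashed line; Bcl2 and Bcl2l1 lie below 0 by more than their bars in both comparisons with OSKA + 4OHT cells, and Pmaip1 lies above 0 by more than its bar in 3 of 4, though within it in those 3 under spike-in scaling.

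Taking the comparisons one at a time, the median difference of the 10 members was 0.12 for 4OHT in OSK cells, 0.08 for 4OHT in OSKA cells, 0.07 for AKT-MER without 4OHT and 0.04 for AKT-MER with 4OHT, and that of all genes was 0.00, −0.03, −0.02 and −0.05. For 4OHT in OSKA cells, 6 members were above 0 and 4 below on their brightest probes, with the 3 anti-apoptotic genes and Bbc3 below. The other probes of Bad (−0.11 ± 0.21) and Bcl2l11 lay on the opposite side. The median was −0.30 over the anti-apoptotic genes, 0.11 over the effectors and 0.09 over the BH3-only genes. In size the differences of Bcl2 and Bcl2l1 were ordinary, since 25.04% and 29.32% of all genes differed by at least as much.

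**Figure D3:**
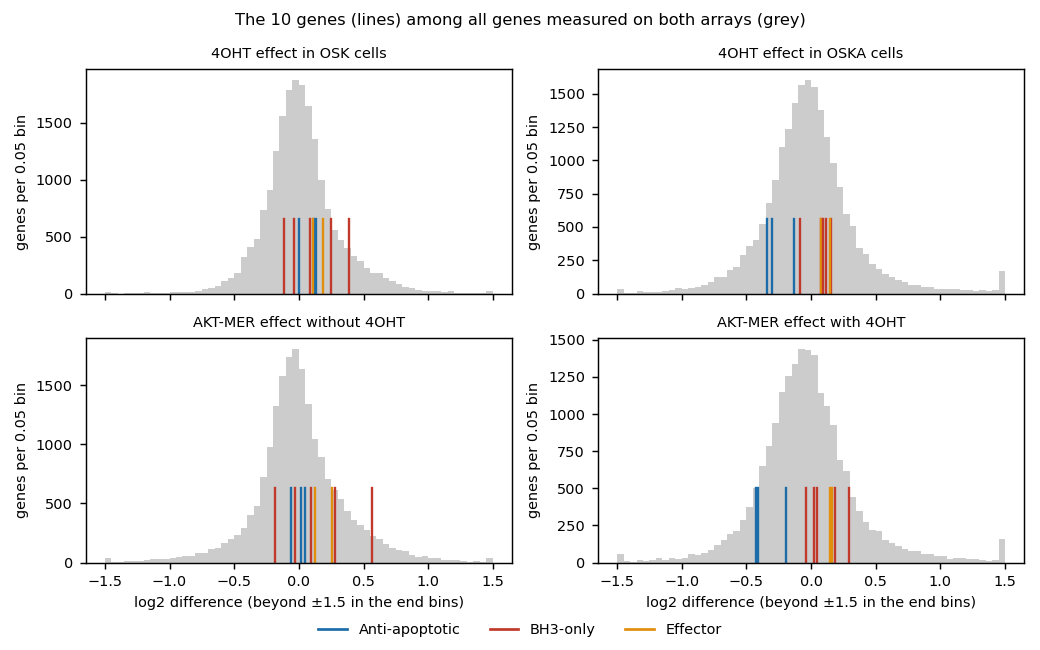
Number of genes per 0.05 of log2 difference for all genes measured on both arrays (grey) in each comparison, with the 10 members as lines coloured by role. The members lie within the body of each distribution, from −0.42 for Bcl2l1 (AKT-MER with 4OHT) to 0.57 for Pmaip1 (AKT-MER without 4OHT).

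The 4OHT effect was then compared between OSKA and OSK cells, to set 4OHT alone beside 4OHT with AKT-MER. The effect in OSKA minus that in OSK cells was −0.46 ± 0.29 for Bcl2 and −0.44 ± 0.29 for Bcl2l1. These were the 2 members whose value exceeded the error, where 40.1% of 19540 genes did so. The other 8 members lay between −0.28 (Pmaip1) and 0.21 (Bid). Both values depended on the scaling of the arrays. When arrays were scaled to the spike-in control probes, the 4OHT effect in OSK cells was 0.31 lower for every gene, and the values became −0.14 for Bcl2 and −0.12 for Bcl2l1, within the error, while those of Bid (0.53), Bak1 (0.35) and Bad (0.31) exceeded it.

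Scaling bore on the directions in 3 of the 4 comparisons. Under spike-in scaling the shift common to all genes was −0.31 for 4OHT in OSK cells, 0.01 for 4OHT in OSKA cells, −0.46 for AKT-MER without 4OHT and −0.14 for AKT-MER with 4OHT. The sign of the difference then changed for 7, 0, 6 and 2 of the 10 members. The sign of every member in the 4OHT effect in OSKA cells was thus the same under the 75th percentile and spike-in scaling, and also under quantile normalization with or without the normexp background correction. Pmaip1 stayed above 0 in all 4 comparisons under each of these scalings.

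**Figure D4:**
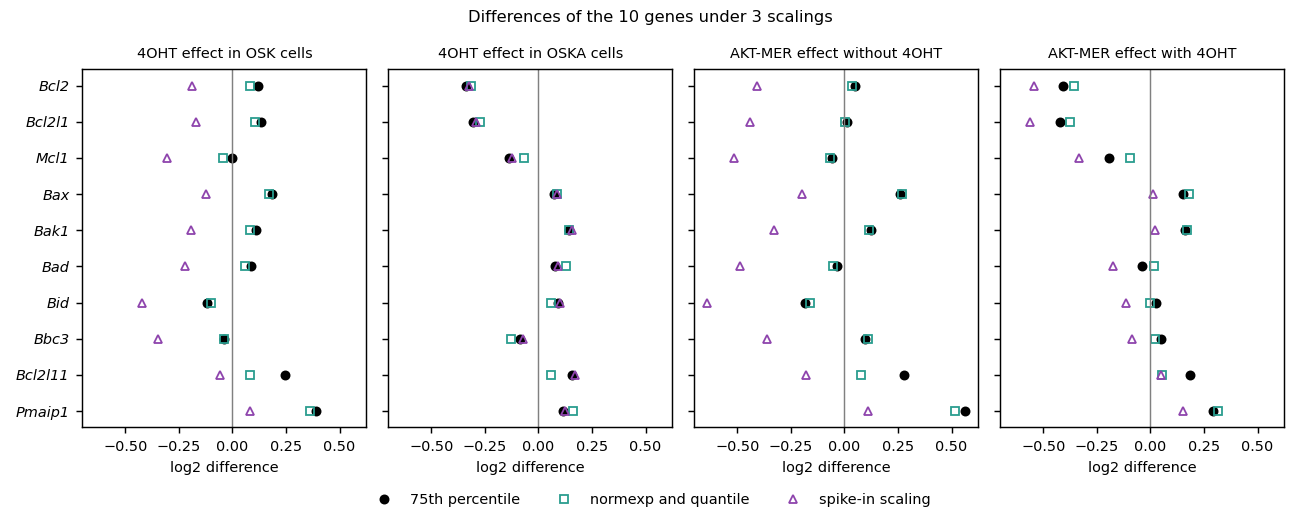
Log2 difference of each gene in the 4 comparisons under 3 scalings of the arrays: the 75th percentile (circles), normexp background correction with quantile normalization (squares) and spike-in control probes (triangles). The symbols nearly coincide for 4OHT in OSKA cells, and the triangles lie to the left in the other comparisons, by 0.46 for AKT-MER without 4OHT.

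A ratio of 2 members on the same array is free of such scaling, and 6 ratios of an anti-apoptotic to a pro-apoptotic gene were formed, chosen after the values were seen. For 4OHT in OSKA cells the ratio of Bcl2 to Bax changed by −0.42 ± 0.29 (0.750-fold) and that of Bcl2 to Bak1 by −0.49 ± 0.29 (0.715-fold). The ratio of Bcl2l1 to Bax changed by −0.38 ± 0.29 and that of Bcl2l1 to Bak1 by −0.45 ± 0.29. In OSK cells the changes with 4OHT were −0.07, 0.01, −0.05 and 0.02, all within the error. The difference between OSKA and OSK cells exceeded its error for the ratios to Bak1 (−0.49 ± 0.41 for Bcl2 and −0.47 ± 0.41 for Bcl2l1) and not for those to Bax (−0.35 ± 0.41 and −0.33 ± 0.41). As the ratios were chosen from their values and no share over other gene pairs is given, passing the error is no test. The ratio of Bcl2l1 to Bcl2l11 changed by −0.46 ± 0.32 in OSKA and −0.11 ± 0.34 in OSK cells, a difference of −0.35 ± 0.47, with the limit on the Bcl2l11 probes given above. The ratio of Mcl1 to Pmaip1 changed by −0.39 ± 0.29 with 4OHT in OSK cells, −0.25 ± 0.29 with 4OHT in OSKA cells, −0.63 ± 0.29 with AKT-MER in the absence of 4OHT and −0.49 ± 0.29 with AKT-MER in its presence.

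Of the other BCL2 family genes, 14 of 16 listed were on the array and 11 were measured for 4OHT in OSKA cells, 5 above and 6 below 0, with a median of −0.10. Those that differed by 1.5-fold were Bnip3 and Bik. Bnip3, which encodes a mitochondrial protein of hypoxia and mitophagy, was at 4.22, 4.44, 4.23 and 4.82 in OSK − 4OHT, OSK + 4OHT, OSKA − 4OHT and OSKA + 4OHT cells. Its difference for 4OHT in OSKA cells was 0.59 ± 0.20 (1.5-fold), and its 2 other probes gave 0.59 and 0.68. Bik, a BH3-only gene, was dim at −3.96, −3.59, −3.50 and −4.18, and its difference of −0.69 ± 0.32 (0.621-fold) was −0.21 with normexp background correction.

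Of the genes in the lists that follow, none of those well above background on both arrays differed by 1.5-fold for 4OHT in OSKA cells. Of 12 apoptosome and caspase genes, 7 were above and 5 below 0 with a median of 0.07, and the largest difference was that of Cycs, the gene of cytochrome c, at 0.43 ± 0.20. Of 8 measured inhibitor of apoptosis genes, 2 were above and 6 below 0 with a median of −0.16, led by Birc3 at −0.28, whose other probe gave 0.08. Of 7 measured death receptor genes, 1 was above and 6 below 0 with a median of −0.01, and the largest difference, −0.21, was that of the receptor gene Fas. Of 7 transcription factor genes known to control BH3-only genes, 4 were above and 3 below 0 with a median of 0.01, and the largest difference was 0.09 for Ddit3, the gene of the stress factor CHOP.

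The protein partners named in the background were also read. Of the 7 genes of 14-3-3 proteins, which hold phosphorylated BAD, 6 were above and 1 below 0 with a median of 0.01, and Ywhag had the largest difference at 0.43. Of 5 genes for the turnover of MCL1, 2 were above and 3 below 0 with a median of −0.04, and the largest difference was that of Trib1 at −0.26, with −0.39 and −0.29 on its other probes.

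The OSK − 4OHT array, on which Pmaip1 was low, was also low in markers of macrophages. The 5 macrophage markers found on the array were all well above background everywhere, and 5 of 5 were lowest in OSK − 4OHT cells, or 2 of 5 under spike-in scaling. Of all genes, 27.2% were lowest there by the 75th percentile, and no such share is given under spike-in scaling. Their log2 summed level was 6.83, 7.41, 7.38 and 7.23 in OSK − 4OHT, OSK + 4OHT, OSKA − 4OHT and OSKA + 4OHT cells. Bcl2a1d, a survival gene of blood cells named after its values were seen, had the same low array, at 2.66, 3.60, 3.42 and 3.25. Its difference was 0.95 ± 0.20 for 4OHT in OSK cells and 0.77 ± 0.20 for AKT-MER without 4OHT, and −0.18 ± 0.20 for 4OHT in OSKA cells. Under spike-in scaling it was 0.64 for 4OHT in OSK cells and 0.31 for AKT-MER without 4OHT. Bcl2a1c, Naip2 and Naip6 were likewise lowest there, by 0.70, 0.56 and 0.57 for 4OHT in OSK cells (0.40, 0.25 and 0.26 under spike-in scaling), and Bcl2a1c and Naip2 were lowest in OSKA + 4OHT cells under spike-in scaling. Naip5 was highest there, at 5.75, 5.69, 5.70 and 5.44, with −0.06 for 4OHT in OSK cells. The Bcl2a1 and Naip genes have close copies in the mouse genome, and which copies a probe reads was not analysed here. Ddit3, also named after its values were seen, differed by 0.65 for AKT-MER without 4OHT, and by 0.20 under spike-in scaling, within its error. For AKT-MER without 4OHT, the epithelial markers had a median of −1.005, with 3 of 5 at least 2-fold lower. Of the 6 fibroblast markers, 5 were higher and 1 lower in that comparison, with a median of 0.24, or −0.22 under spike-in scaling. The part of macrophage, epithelial or fibroblast RNA in the differences of Pmaip1 and Bax from the OSK − 4OHT array was not tested.

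**Figure D5:**
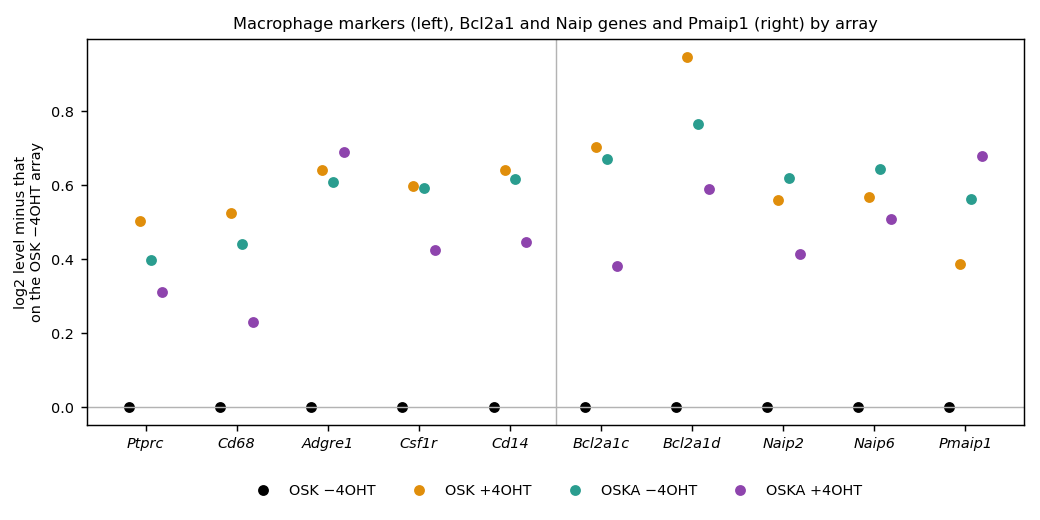
Log2 level minus that on the OSK − 4OHT array, by array, for 5 macrophage markers (left of the line) and for Bcl2a1c, Bcl2a1d, Naip2, Naip6 and Pmaip1 (right). By the 75th percentile all 10 genes are lowest on the OSK − 4OHT array, and under spike-in scaling only Adgre1, Cd14, Bcl2a1d, Naip6 and Pmaip1 are; Bcl2a1d is highest in OSK + 4OHT cells (0.95) and Pmaip1 in OSKA + 4OHT cells (0.68).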

How the data were processed

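Cy3-labelled cRNA of each group was hybridised to 1 single-colour Agilent array, 4 in all. The deposited scanner files hold a background-subtracted intensity on a linear scale for 62976 spots per array, made by the authors with Agilent Feature Extraction 10.7.3.1 and not normalized between arrays. Values of the series matrix equalled these within a ratio of 0.995 to 1.005.

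Control spots and 104 to 155 spots per array marked as uneven or as outliers were left out. Levels are log2 intensity minus the array's 75th percentile, averaged over spots of a probe. Differences needed a probe well above background on each array compared, with the software's errors combined in quadrature. Where 1 of both arrays failed this, the bright level was compared with the larger of that array's dim level and its lowest level called well above background. The result is given as a fold without a combined error. Each gene was represented by its brightest probe over the 4 arrays. Names come from the files, and for 27509 probes from a RefSeq table of GRCm38.p6 through accessions. Coordinates of probes are those of the files (mm9).

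The 10 members were named in every case, with their other probes where these differed. Of each of the 7 other lists of apoptosis genes, genes at 1.5-fold or more for 4OHT in OSKA cells were named, or otherwise the gene with the largest difference. The rule did not cover the lists of cell type markers. The members and lists were chosen with earlier results of these data known. Normexp (offset 50) and quantile normalization were run with limma 3.58.1 in R 4.3.3, and the rest in Python 3.11.15 with pandas 2.3.3, numpy 2.4.6 and matplotlib 3.10.9. The computation of differences was tested on simulated data. The number of arrays limits the precision.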

Additional observations from a re-analysis of the deposited data

How the results depend on the processing

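The alternatives were normexp with quantile normalization, quantile normalization alone, scaling to 7 spike-in control probes, the series matrix, the mean of all probes of a gene, no filter on dim probes and a 1.5-fold threshold. The count of members at the threshold was 0 in every comparison under each of them. The median difference of the members became −0.19 for 4OHT in OSK cells and −0.39 for AKT-MER without 4OHT under spike-in scaling, which lowered all genes alike in these comparisons. Of the 50 single values of members (the 4 comparisons and the difference of the 4OHT effects), 29 moved by more than the software error under spike-in scaling and 1 with the mean of all probes, which was Bcl2l11 for AKT-MER without 4OHT at 0.01. None did so under the other alternatives. No paired analysis was possible because each group had 1 array, and for the same reason no replicate could be left out. Signals of Bcl2l11 and Bik lay near the background, which limits both genes.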

Other observations

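Bcl2l14, a BCL2 family gene named after its values were seen, had the only 2-fold difference among the 11 measured genes of the other BCL2 family list, with −1.04 for AKT-MER without 4OHT and −1.20 for AKT-MER with 4OHT. With normexp background correction these were −0.46 and −0.50. It was not different by 2-fold for 4OHT, with 0.24 in OSK cells and 0.08 in OSKA cells. Tnfsf10, the gene of the death ligand TRAIL, was well above background in OSKA + 4OHT cells and not on the other arrays. Its level there was −4.44, near the lowest level called well above background on that array, −4.77. The dimmer Bcl2l11 probe, at −4.43 on the same array, was not called well above background, so this call for Tnfsf10 is a weak one.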
